A study of Mus musculus with 14 samples.

Results

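The constant regions of the antibody heavy chain and the J chain were followed across 4 subsets of B cells sorted from mouse spleen. The members were all probe sets whose single annotated symbol was Jchain, Igha, Ighm or Ighg3, which gave 19 of the 45037 probe sets on the array that were not controls, and 4 of 18193 genes. Jchain had 1 probe set, Igha 3, Ighm 11 and Ighg3 4. Each of 14 Affymetrix arrays held amplified, biotin-labelled RNA of sorted cells, and every mouse was a male of the strain C57Bl/Ka with no genetic alteration named. Plasma cells (4 arrays) were taken at day 7 after immunization from mice aged 5 to 9 weeks and gated as syndecan-1+, PNA-negative cells with low B220 and low IgM that carried the lambda light chain and bound the hapten NP. Germinal center cells (3 arrays) were taken at day 14 from mice aged 6 to 10 weeks and gated as B220+ PNA+ cells with low CD38, low or no IgM and low lambda that bound NP. Memory cells (4 arrays) were taken at 10 to 12 weeks from mice aged 14 to 18 weeks and gated as B220+ cells with high CD38 and lambda that bound NP and lacked IgM, IgD and PNA. Naive cells (3 arrays) came from unimmunized mice aged 4 to 8 weeks and were gated as B220+ CD23+ cells with IgD, lambda and low IgM. The 3 other subsets came from mice given NP-CGG, a hapten coupled to chicken gamma globulin, in alum into the peritoneum. The dose was 100 µg, and the label of plasma array 1 gives none. Cells with CD3, CD4, CD5, CD8, CD11b, Gr-1 or Ter119 were left out of every sort. Age and time after immunization changed together with the subset and cannot be told apart from it.

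An antibody heavy chain joins a variable region to a constant region, and the constant region sets the class of the antibody. Ighm encodes the mu chain of IgM, with which naive B cells begin, and class switching after activation replaces it with another constant region such as gamma 3 (Ighg3, IgG3) or alpha (Igha, IgA) farther along chromosome 12. B cells carry the heavy chain on their membrane as part of the antigen receptor, while plasma cells make large amounts of the secreted form. The J chain, encoded by Jchain on chromosome 5, links the units of secreted IgM and IgA into polymers.

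The 4 genes were not covered alike. The reference gene table lists 8 heavy chain constant region genes on chromosome 12 in the order Ighm, Ighd, Ighg3, Ighg1, Ighg2b, Ighg2c, Ighe and Igha. Of these, 5 (Ighd, Ighg1, Ighg2b, Ighg2c and Ighe) had no probe set with that single symbol and were not analysed here. A probe set is a group of short probes meant for 1 transcript, and the ending of its name tells how specific it was designed to be. Of the 19 members, 8 end in _at, which marks a design for 1 transcript, and 4 in _a_at, for several transcripts of a gene. Another 6 end in _x_at, whose probes may match other sequences, and 1 in _s_at, whose probes are shared by several transcripts. Constant regions of the heavy chain genes resemble each other, so signal from another class on a probe set annotated to 1 of them cannot be told apart. The stretch just before the transcript start of Jchain is shown because it is the only one of the 4 genes with an entry in the promoter table used here. It is taken from RefSeq on the build GRCm38.p6, as the 250 bases before the start on the minus strand at chr5:88527898-88528147, with matches to CANNTG and GAAAG in capitals.
Jchain: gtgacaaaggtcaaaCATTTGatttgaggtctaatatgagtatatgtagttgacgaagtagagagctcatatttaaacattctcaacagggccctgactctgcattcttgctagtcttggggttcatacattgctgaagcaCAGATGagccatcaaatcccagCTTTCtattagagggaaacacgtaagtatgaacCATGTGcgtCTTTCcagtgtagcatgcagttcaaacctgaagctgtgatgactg
Motifs were searched on both strands. CANNTG, the E-box bound by E proteins, occurred 3 times, starting 235, 109 and 54 bases before the start, and 66.2% of 32851 promoters of this length hold it. GAAAG, letters within the site described for Blimp-1 (Prdm1), occurred 2 times, both on the opposite strand as CTTTC and starting 87 and 45 bases before the start, and 51.5% of promoters hold it. ACGT, the core of the site described for Xbp1, occurred 1 time at 68 bases and in 26.9% of promoters. The octamer ATGCAAAT, bound by Oct factors, and GAGGAA, letters bound by PU.1 and SpiB, did not occur in this window, and 1.60% and 23.3% of promoters hold them. No motif overlapped another.

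Values are intensities on a linear scale, and fold changes are differences of log2 intensity with their standard errors. The background of an array was its brightest unspiked bacterial control, between 11.0 and 16.1, and a probe set counted as measured when it lay above background on at least 3 arrays. Of the members, 15 were measured: Jchain, the 3 of Igha, 9 of Ighm and 2 of Ighg3. The labels do not say whether replicates are separate animals. The p-values therefore measure the spread of these arrays alone, possibly a technical one, and the number of arrays limits their precision. All 9 plasma cell markers rose in plasma and all 7 measured germinal center markers in germinal center cells against naive cells (limma, adjusted p under 0.05). All 4 measured memory markers rose in memory against naive cells at that threshold. Of these 4, 2 also rose in germinal center against naive cells, and 2 rose and 1 fell in memory against germinal center cells. All 4 measured naive markers fell in plasma and in germinal center cells, while in memory cells 1 fell and 3 did not pass. The marker syndecan-1 was also a sort gate of plasma cells, and the naive marker Fcer2a (CD23) was also a sort gate of naive cells. The summed intensity of the 5 measured T cell markers was at most 97.7, of the 6 myeloid markers at most 236.3, of the 3 erythroid markers at most 46.5 and of the 3 natural killer cell markers at most 52.8 on any array. The 3 markers of plasmacytoid dendritic cells summed to 735.3 to 3823, most of it Tcf4, which B cells also express, while Siglech averaged 19.8 to 23.3 (geometric mean of a subset). In plasma against naive cells the T cell genes Cd3e and Cd8a rose by 0.70 and 0.60, the myeloid genes Cd68 and Csf1r by 1.33 and 1.30 and Bst2 by 2.07, and Adgre1 fell by 0.88 (limma adjusted p = 0.00371, 0.0108, 0.000373, 0.0259, 1.97e-05 and 0.0127). The calls of Cd8a, Csf1r and Adgre1 were lost without naive array 3, without naive array 1 or 3 or plasma array 1 or 4, and without naive array 2, in that order (limma adjusted p = 0.0625, 0.0625 to 0.0818 and 0.0589). On each plasma array 4 of 6 myeloid and 3 to 4 of 5 T cell markers lay above background. Each naive array had 2 to 3 of either list above it. The myeloid markers summed to 96.5 to 236.3 on the plasma and 105.5 to 131.1 on the naive arrays. Cd3g, Itgam and S100a8 lay above background on 0 of 4 plasma arrays, and the part of such cells in the plasma values was not tested. Log2 values of arrays of a subset correlated at 0.949 to 0.990, and those of different subsets at 0.799 to 0.968. The ratio of the 3' to the middle beta-actin control, a sign of RNA or amplification quality, was 10.1, 17.6 and 6.11 on the germinal center arrays and 4.15 to 6.91 on all others. With that ratio in the fit, 2259 instead of 6178 of all probe sets passed in germinal center against naive cells. Named genes other than the members were not followed in that fit. Among 9995 brighter probe sets (mean log2 intensity of at least 6) the median fold change was -0.27 in plasma, -0.20 in germinal center and -0.18 in memory cells against naive cells.

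In plasma against naive cells, 13 of the 19 members rose and 0 fell in limma at an adjusted p under 0.05, where 10.7% of all probe sets rose and 12.3% fell. The median fold change of the 15 measured members was 9.52, beside 0.0014 for the 25938 measured probe sets of the array. In germinal center against naive cells 8 members rose and 0 fell, where 6.11% of all probe sets rose and 7.61% fell. In memory against naive cells 12 rose and 1 fell, where 2.05% rose and 1.88% fell. The 1 that fell, Ighm 1426196_at, was among the 4 members not measured and lay above background on 1 of 14 arrays. The medians of the measured members were 2.55 in germinal center and 3.89 in memory cells. These 3 comparisons share the naive arrays. In plasma against germinal center cells 12 members rose and 1 fell (8.07% and 9.31% of all probe sets), and in plasma against memory cells 12 rose and 1 fell (13.3% and 15.1%). The 1 that fell was Ighg3 1447998_at in both. In memory against germinal center cells 9 rose and 1, Jchain, fell (9.59% and 8.54%). The order plasma, memory, germinal center, naive, from high to low, held for 8 of the 15 measured members, and the other 7 each had an order of their own.

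**Figure D1:**
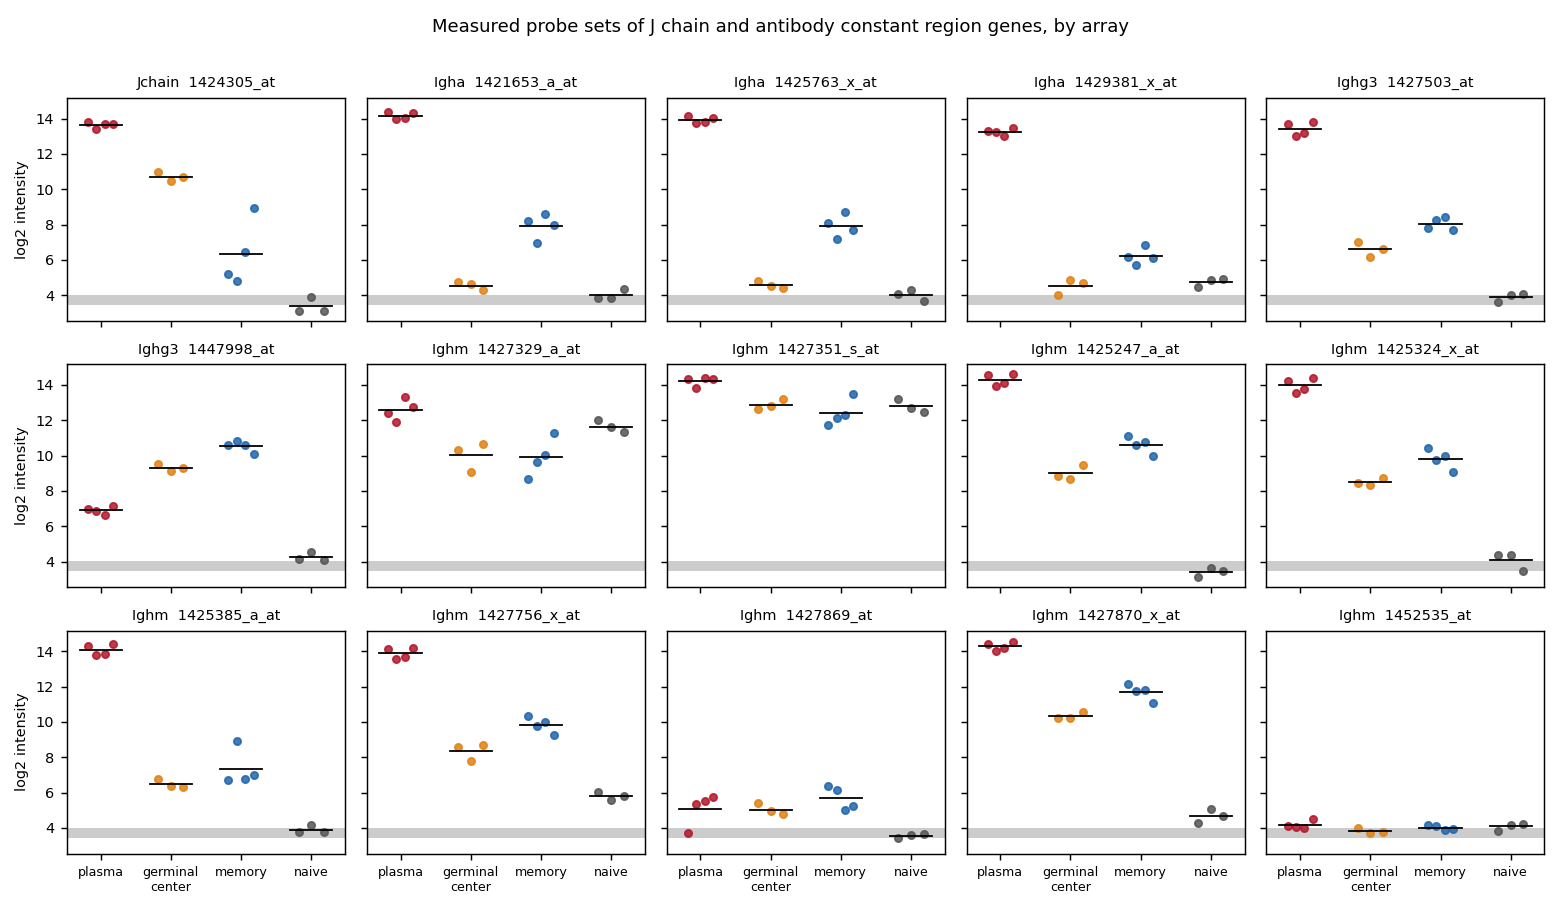
Log2 intensity (vertical axis) of each of the 15 measured member probe sets in plasma, germinal center, memory and naive cells, with 1 point per array, a bar at the mean of each subset and the range of the array backgrounds in grey. Most panels fall steeply to near background in naive cells, while Ighm 1427351_s_at and 1427329_a_at stay far above it there and Ighg3 1447998_at is highest in memory cells.

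Jchain was nearly silent in naive cells, was bright in germinal center cells and was brightest in plasma cells. Its intensity was 14629.5, 10767, 13195.5 and 13439 on the plasma arrays, 2027, 1419 and 1678 on the germinal center arrays, 37.6, 28.5, 86.3 and 489.2 on the memory arrays, and 8.69, 14.9 and 8.67 on the naive arrays. No array of 1 subset overlapped any of another, and only 1 of the 3 naive arrays lay above its background. Jchain rose by 10.28 ± 0.70 on the log2 scale in plasma against naive cells (SE, n = 4 and 3, limma adjusted p = 1.24e-07). It rose by 7.34 ± 0.75 in germinal center against naive cells (n = 3 each, limma adjusted p = 1.42e-05). The sorted cells were measured in bulk, so a smaller share of cells with the transcript and less transcript per cell cannot be told apart. The difference of plasma from germinal center cells was 2.94 ± 0.70 (limma adjusted p = 0.00891). It did not pass once the fit also held the actin ratio (2.70, limma adjusted p = 0.0843).

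Jchain was bright in germinal center cells, where all 9 plasma cell markers were lower than in plasma cells (limma, adjusted p under 0.05). Of these, Sdc1 (syndecan-1), Prdm1 (the repressor Blimp-1), Tnfrsf17 (the survival receptor BCMA) and Fkbp11 lay above background on 0 of 3 germinal center arrays. Tnfrsf17 was dim in plasma cells too (16.5 to 33.7). The other 5, Xbp1, Irf4, Slamf7, Derl3 and Bhlha15, lay above background on each germinal center array. The 9 markers summed to 1902 to 4839 on the germinal center arrays, against 3190 to 3504 on the naive arrays. Most of the sum was Xbp1 in both, at 1152, 2490 and 3527 on the germinal center and 1990 to 2439 on the naive arrays. In germinal center against naive cells 2 of the 9 rose, 2 fell and 5 did not pass. Slamf7 rose by 2.05 ± 0.29 and Derl3, of the disposal of misfolded proteins, by 1.66 ± 0.28 (limma adjusted p = 0.000286 and 0.0012). Irf4 was 49.3, 45.3 and 133 on the germinal center arrays and 602 to 887 on the naive arrays. Sdc1 was at least 10.1-fold lower in germinal center than in naive cells. On the plasma arrays the 9 markers summed to 19718 to 26951, and all 9 lay above background.

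In memory cells Jchain was low and uneven. It was 20.6-fold lower in memory than in germinal center cells (-4.37 ± 0.70, n = 4 and 3, limma adjusted p = 0.000632), and 37.4-fold lower without memory array 4 (limma adjusted p = 6.99e-07). Plasma cells exceeded memory cells by 7.30 ± 0.65 (limma adjusted p = 1.26e-06), and by 8.16 without memory array 4. Against naive cells Jchain rose by 2.98 ± 0.70 in memory cells (limma adjusted p = 0.0305), and by 2.12 without memory array 4 (adjusted p = 0.00506). It no longer passed when naive array 1, 2 or 3 or memory array 3 was left out (limma adjusted p = 0.075, 0.0645, 0.11 and 0.0613) and with a floor of 16 before log2 (adjusted p = 0.204). On memory array 4, with the highest Jchain of its subset, 8 of 9 plasma cell markers lay above background against 5 to 7 on the other memory arrays, and its background, 11.0, was the lowest of all 14. Their mean log2 intensity was 5.94 there against 5.51 to 5.70, beside 5.92 to 6.25 on the naive arrays. Sdc1 was 6.37, 7.91, 7.39 and 49.9 on the memory arrays, and without it the mean of the other 8 markers was 5.98 on array 4 against 5.87 to 6.03. Prdm1 was 14.6, 25.4, 17.9 and 25.1, and the part of plasma cell transcripts in the level of Jchain there was not tested.

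**Figure D2:**
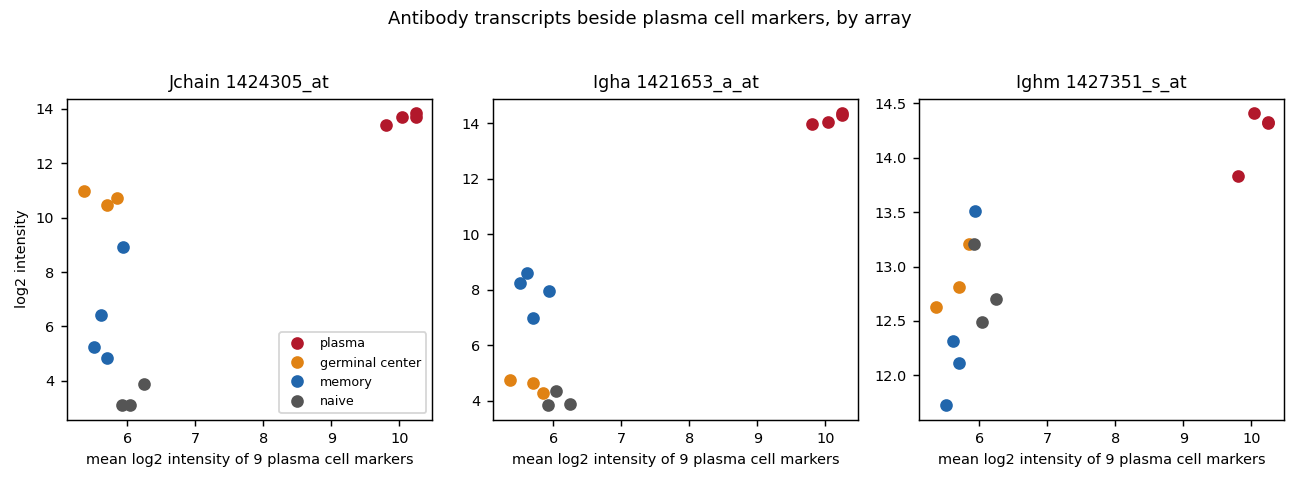
Plasma cell markers beside Jchain, Igha and Ighm on each array, with the mean log2 intensity of the 9 markers on the horizontal axis, the log2 intensity of the probe set with the highest mean of each gene on the vertical axis and 1 point per array. The plasma arrays lie at 9.81 or above for the markers. The germinal center arrays have high Jchain at marker levels of 5.36 to 5.85, below those of the naive arrays. Without Sdc1 the other 8 markers averaged 5.61, 6.06 and 6.13 on the germinal center arrays. On the naive arrays these averaged 5.82, 6.09 and 5.90, so the subsets overlapped.

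Igha, the constant region of IgA, was highest in plasma cells, intermediate in memory cells and near background in germinal center and naive cells. Probe set 1421653_a_at measured 21118, 16245, 16796 and 20252 on the plasma arrays, 26.5, 24.7 and 19.4 on the germinal center arrays, 301.2, 126.3, 386.1 and 248.9 on the memory arrays, and 14.4, 14.7 and 20.2 on the naive arrays. The plasma and memory arrays lay apart from all others, while the germinal center and naive arrays overlapped. Igha rose by 10.16 ± 0.29 in plasma (limma adjusted p = 4.13e-11) and by 3.92 ± 0.29 in memory cells against naive cells (limma adjusted p = 5.57e-06). The difference between germinal center and naive cells was 0.53 ± 0.31 and did not pass (limma adjusted p = 0.324). Memory cells exceeded germinal center cells by 3.40 ± 0.29 (limma adjusted p = 2.67e-06).

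The other probe sets of Igha gave the same order of plasma and memory cells. Probe set 1425763_x_at rose by 9.91 ± 0.28 in plasma and by 3.89 ± 0.28 in memory cells against naive cells (limma adjusted p = 3.43e-11 and 3.39e-06), with 2 of 3 naive arrays above background. For 1429381_x_at the rises were 8.48 ± 0.25 and 1.45 ± 0.25 (limma adjusted p = 4.29e-11 and 0.0049). Its memory arrays ran from 53.6 to 115.2 and its naive arrays from 22.5 to 30.7. Neither differed between germinal center and naive cells at the threshold (limma adjusted p = 0.282 and 0.623). Pigr, the receptor that carries polymeric IgA and IgM through epithelia in mammals, lay above background on 0 of 4 plasma arrays.

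Ighg3, the constant region of IgG3, had 2 measured probe sets, both lowest in naive cells and higher in memory than in germinal center cells, that differed in the place of plasma cells. Probe set 1427503_at measured 13290.4, 8444, 9184 and 14106 on the plasma arrays, 129.8, 71.4 and 98.2 on the germinal center arrays, 220.6, 304.9, 350.5 and 205.6 on the memory arrays, and 12.2, 16 and 17.0 on the naive arrays. The 4 subsets did not overlap, with plasma cells far above the rest and 2 of 3 naive arrays above background. It rose by 9.52 ± 0.25 in plasma, by 2.70 ± 0.27 in germinal center and by 4.14 ± 0.25 in memory cells against naive cells (limma adjusted p = 2.15e-11, 1.33e-05 and 7.91e-07). Memory cells exceeded germinal center cells by 1.45 ± 0.25 (limma adjusted p = 0.00132). That difference did not pass with the actin ratio in the fit (1.10, limma adjusted p = 0.178).

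Probe set 1447998_at, also annotated Ighg3, was highest in memory cells. It measured 128.6, 115.0, 97.9 and 140.7 on the plasma arrays, 741.5, 550.5 and 623.5 on the germinal center arrays, 1554, 1830.2, 1527 and 1072 on the memory arrays, and 17.6, 23.1 and 17.4 on the naive arrays. The subsets again did not overlap, but plasma cells lay below germinal center and memory cells. It was 12.3-fold lower in plasma than in memory cells (-3.62 ± 0.17, limma adjusted p = 3.83e-09) and 5.30-fold lower in plasma than in germinal center cells (-2.41 ± 0.19, limma adjusted p = 6.41e-07). Memory cells exceeded germinal center cells by 1.21 ± 0.19 (limma adjusted p = 0.000524), and did not pass with the actin ratio in the fit (1.03, adjusted p = 0.0861). Both probe sets carry the ending _at, and which transcripts each detects was not tested. The remaining 2 probe sets of Ighg3, 1426198_at and 1426199_x_at, lay above background on no array.

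The ratio of these probe sets within arrays was followed as a description, with 2 further pairs annotated Ighm. The 3 pairs were chosen after their values were seen, so they were not tested. The log2 ratio of 1447998_at over 1427503_at was -6.52 ± 0.22 in plasma and 2.48 ± 0.30 in memory cells (SD, n = 4 each). It ran from 2.51 to 2.95 in germinal center and from 0.03 to 0.53 in naive cells. Only the difference of a ratio between subsets can be read, since probes differ in brightness. The log2 ratio of 1427869_at over 1427870_x_at was -9.19 ± 1.03 in plasma and -6.00 ± 0.53 in memory cells (SD, n = 4 each). That of 1427329_a_at over 1427351_s_at was -1.64 ± 0.39 in plasma and -2.51 ± 0.38 in memory cells (SD, n = 4 each). Some of these probe sets lay near the top of the scale in plasma cells, and the part of saturation in the ratios was not tested.

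**Figure D3:**
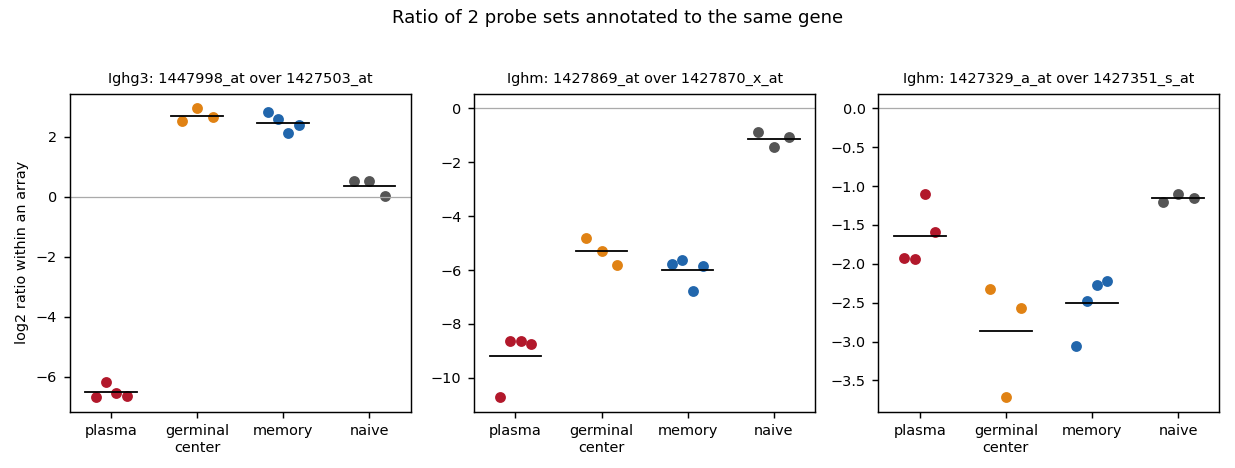
The log2 ratio of 2 probe sets annotated to the same gene within each array (vertical axis), with 1 point per array and a bar at the mean, for plasma, germinal center, memory and naive cells. For Ighg3 the plasma arrays lie between -6.69 and -6.20 and all other arrays lie above 0.

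Ighm, the constant region of IgM, fell into sets of probe sets that went different ways. Naive and plasma cells were sorted with low surface IgM, germinal center cells with low or no IgM, and memory cells without it. Of the 9 measured probe sets annotated Ighm, only 1427351_s_at and 1427329_a_at were far above background in naive cells (2592 to 9437), and the other 7 lay between 8.84 and 64.4 on every naive array. The part of the sort gate in the low naive level of those 7 was not tested. Which class or form of heavy chain they detect was not tested, so their annotated symbol is uncertain. Of them, 1427869_at and 1452535_at were dim in plasma cells too (13.1 to 54.8 and 15.8 to 23.1). Those 7 are called in the text by their probe set names, and the plots carry the annotated symbol. Which class 1427351_s_at and 1427329_a_at detect was not tested either, and the ending of the first marks probes shared by several transcripts.

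Probe set 1427351_s_at measured 20584.6, 14594, 21776 and 20395.5 on the plasma arrays, 6347, 7188.5 and 9457 on the germinal center arrays, 3388, 4417, 5088.5 and 11706 on the memory arrays, and 9437, 6644 and 5741 on the naive arrays. Every plasma array lay above all others, while the germinal center, memory and naive arrays overlapped. It rose 2.69-fold in plasma against naive cells (1.43 ± 0.34, limma adjusted p = 0.00685). The differences from naive cells were 0.09 ± 0.36 in germinal center and -0.38 ± 0.34 in memory cells and did not pass (limma adjusted p = 0.914 and 0.678). Plasma cells exceeded memory cells by 1.81 ± 0.31 (limma adjusted p = 0.000537) and germinal center cells by 1.34 ± 0.34 (adjusted p = 0.013). The last of these did not pass without germinal center array 1 (1.21, limma adjusted p = 0.0521) or when the fit held the actin ratio (1.10, adjusted p = 0.141).

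Probe set 1427329_a_at measured 5423, 3809, 10114 and 6783 on the plasma arrays, 1268, 546.5 and 1594 on the germinal center arrays, 406.1, 795.2, 1052 and 2504 on the memory arrays, and 4098, 3097 and 2592 on the naive arrays. Naive and plasma arrays overlapped, and every germinal center and memory array lay below every naive one. Plasma cells exceeded memory cells by 2.68 ± 0.49 and germinal center cells by 2.57 ± 0.53 (limma adjusted p = 0.00081 and 0.00322), the second of which did not pass when the fit held the actin ratio (1.86, adjusted p = 0.078). Against naive cells the differences were -1.63 ± 0.56 in germinal center and -1.74 ± 0.53 in memory cells and did not pass (limma adjusted p = 0.075 and 0.0926). Without memory array 4 both passed, at -1.63 and -2.20 (limma adjusted p = 0.0313 and 0.0194), and without memory array 1 the germinal center difference did (adjusted p = 0.0395). The difference of plasma from naive cells was 0.94 ± 0.53 (limma adjusted p = 0.243).

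Among those 7, 5 probe sets were bright in plasma cells and dim in naive cells: 1425247_a_at, 1425324_x_at, 1425385_a_at, 1427756_x_at and 1427870_x_at. They measured 11904 to 24812 on the plasma arrays, 79.2 to 1508 on the germinal center arrays, 103.1 to 4504 on the memory arrays and 8.84 to 64.4 on the naive arrays. Probe set 1425247_a_at measured 24199, 15556, 17953 and 24811.5 on the plasma arrays, 459.7, 410.6 and 701.6 on the germinal center arrays, 2236, 1546, 1750.01 and 1013 on the memory arrays, and 8.84, 12.7 and 11.01 on the naive arrays. The subsets did not overlap, and only 1 of 3 naive arrays lay above background. It rose by 10.88 ± 0.27 in plasma, by 5.57 ± 0.29 in germinal center and by 7.20 ± 0.27 in memory cells against naive cells (limma adjusted p = 1.10e-11, 2.39e-08 and 5.43e-09). Memory cells, sorted as lacking IgM, exceeded germinal center cells by 1.63 ± 0.27 (limma adjusted p = 0.000797, and 0.14 when the fit held the actin ratio).

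The other 4 of these 5 varied in the same order. Their rises ran from 8.08 to 10.18 in plasma, from 2.55 to 5.66 in germinal center and from 3.45 to 7.02 in memory cells against naive cells. With the actin ratio in the fit, the excess of memory over germinal center cells did not pass for 1425324_x_at, 1427756_x_at or 1427870_x_at (limma adjusted p = 0.314, 0.208 and 0.108). Probe set 1427870_x_at measured 4504, 3493, 3589.9 and 2147 on the memory arrays and 19.5, 33.1 and 25.6 on the naive arrays. Probe set 1425385_a_at measured 103.1, 492.1, 108.3 and 127.7 on the memory arrays, with array 2 above the rest, and its difference of memory from germinal center cells did not pass (0.86 ± 0.42, limma adjusted p = 0.198). Over the 14 arrays, as a description, log2 values of the 5 correlated at 0.86 to 0.99 with each other, at 0.91 to 0.99 with Ighg3 1427503_at, at 0.83 to 0.96 with Igha 1421653_a_at, at 0.79 to 0.83 with Jchain, at 0.06 to 0.54 with Ighg3 1447998_at, at 0.45 to 0.74 with Ighm 1427351_s_at and at 0.10 to 0.52 with Ighm 1427329_a_at. These points share arrays, scaling and the order of the subsets, and which class of heavy chain the 5 detect was not tested.

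The last 2 measured probe sets annotated Ighm were dim. Probe set 1427869_at measured 13.1, 40.9, 46.3 and 54.8 on the plasma arrays, 42.2, 30.8 and 27.1 on the germinal center arrays, 82.4, 71.1, 32.5 and 37.6 on the memory arrays, and 10.6, 12.2 and 12.4 on the naive arrays, of which 1 of 3 lay above background. It rose by 2.14 ± 0.44 in memory and by 1.54 ± 0.44 in plasma against naive cells (limma adjusted p = 0.0149 and 0.0203). The rise in memory cells did not pass without naive array 2 or with a floor of 16 before log2 (limma adjusted p = 0.0522 and 0.0984). That in plasma cells did not pass when naive array 1 or 3 or plasma array 2, 3 or 4 was left out (limma adjusted p = 0.051 to 0.0699), with the floor of 16 (1.16, adjusted p = 0.12) or with the actin ratio in the fit (1.36, adjusted p = 0.0694). Its difference of germinal center from naive cells was 1.48 ± 0.47 (limma adjusted p = 0.0523), and passed without plasma array 1 or 4 or memory array 1 or 3 (adjusted p = 0.00726 to 0.0498). Probe set 1452535_at lay between 13.2 and 23.1 on all arrays and passed in none of the 6 comparisons. The 2 that were not measured, 1426196_at and 1451949_at, reached at most 15.2.

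**Figure D4:**
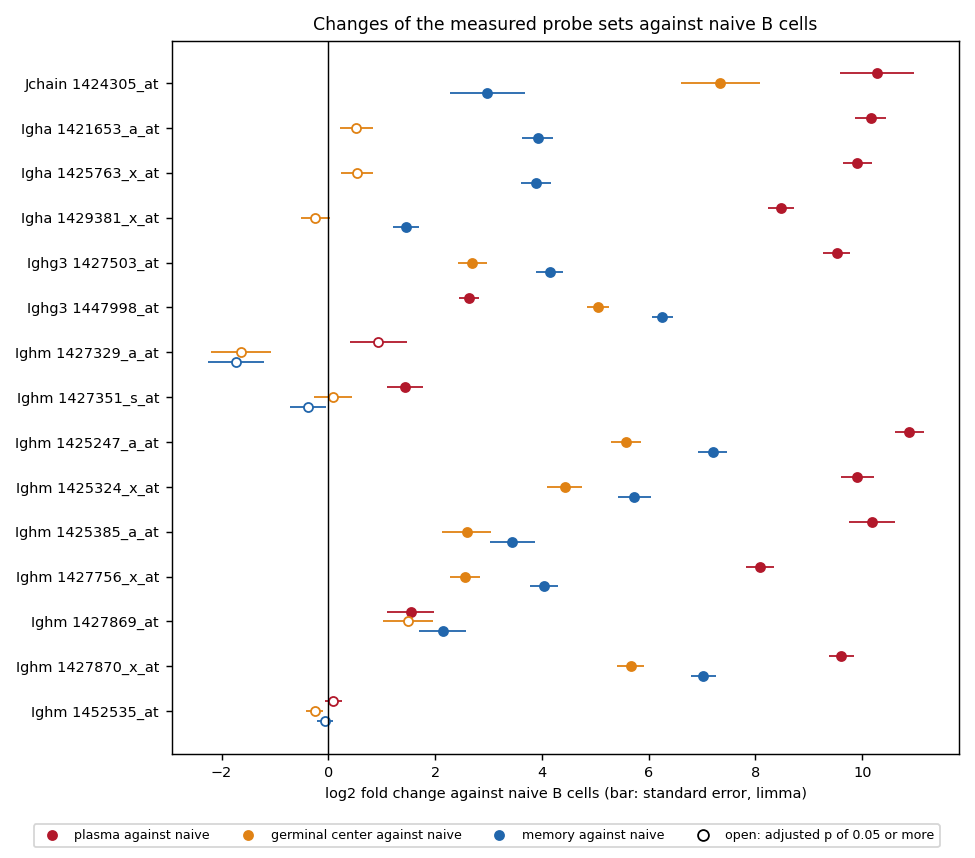
Log2 fold change with its standard error of each measured member probe set in plasma, germinal center and memory cells against naive cells, with filled points where limma's adjusted p was under 0.05. Jchain and most constant region probe sets stand farthest to the right in plasma cells, while for Ighg3 1447998_at the point of memory cells does, at 6.26.

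Another 4 probe sets carry several symbols of which 1 is a member, and they stayed out of the counts. Only 1427851_x_at, annotated Ighv1-72 and Ighm, was measured. It was 96.4, 33.2, 40.8 and 44.6 on the plasma arrays and 8.9 to 12.5 on all others, and rose by 2.17 ± 0.27 in plasma against naive cells (limma adjusted p = 4.66e-05). Probe set 1451947_at, annotated Ighv14-2, Ighg3 and Ighm, lay above background on 0 arrays.

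Spread between arrays of a subset differed between subsets. The median SD of log2 intensity over the members above background was 0.56 in memory cells, beside 0.28 for all such probe sets, and 14 of 15 members lay above that 0.28. It was 0.26 for both in plasma cells, 0.28 against 0.37 in germinal center cells and 0.26 against 0.28 in naive cells. Jchain varied most in memory cells, 17.2-fold from the lowest to the highest array, against 1.36-fold in plasma cells. Memory array 4 had the highest Jchain, Ighm 1427351_s_at and Ighm 1427329_a_at of its subset and the lowest Ighg3 1447998_at, Ighg3 1427503_at and 1425247_a_at, though none of these met the criterion used for an array apart from the other 3. On the plasma arrays 8 to 9 members lay within 1 log2 unit of the brightest probe set of the array (20657 to 33716), against 0 on every other array, and the effect of saturation on their fold changes was not tested.

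Antibody light chain and variable region genes were also followed, as 25 probe sets with a single symbol, of which 9 were measured. In plasma against naive cells 8 of the 25 rose and 1 fell, where 10.7% of all probe sets rose and 12.3% fell. The median was 0.30 over the 25 (0.03 over all probe sets). Of the 8, Igk-V21 1427858_at lay above background on 0 arrays. The measured Igk 1425738_at did not pass (limma adjusted p = 0.0732). Among kappa genes, Igkv8-30 rose by 3.80 ± 0.29, Igk 1452557_a_at by 2.12 ± 0.51 and Igkv19-93 by 2.00 ± 0.16 (limma adjusted p = 3.74e-07, 0.00769 and 5.25e-07). Iglv1, the lambda variable region used in the response to NP in this strain background, measured 6943 to 9530.4 in plasma and 4689 to 5935 in naive cells on 1447918_x_at, which rose by 0.61 ± 0.15 (limma adjusted p = 0.008). Its other probe set, 1430523_s_at, measured 465.8 to 917.3 in plasma and 141.5 to 235.9 in naive cells and rose by 1.78 ± 0.44 (limma adjusted p = 0.00885). All subsets had been gated on lambda. The 1 that fell, 1455530_at, is annotated Ighv14-2 and is named after its values were seen. It measured 8.89, 8.97, 8.56 and 8.51 on the plasma arrays, 29.4, 35.6 and 82.5 on the germinal center arrays, 291.6, 194.4, 173.3 and 1620 on the memory arrays, and 6066, 4935 and 4958 on the naive arrays. It lay above background on 0 of 4 plasma arrays and was at least 386-fold lower there than in naive cells (limma adjusted p = 8.11e-08). It fell by 6.90 ± 0.64 in germinal center and by 3.90 ± 0.60 in memory cells against naive cells (limma adjusted p = 6.24e-06 and 0.00246). Memory array 4 was again the highest of its subset, and without it the fall in memory cells was 24.7-fold instead of 14.9-fold (-4.63, limma adjusted p = 4.55e-06). Probe sets 1427758_x_at, 1451947_at and 1452538_at, annotated Ighv14-2, Ighg3 and Ighm, lay above background on 0 of 3 naive arrays. Which transcripts 1455530_at detects was not tested.

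Genes that fold and assemble antibodies in the endoplasmic reticulum rose with the plasma cell state. Of 12 such genes, 11 rose and 0 fell in plasma against naive cells, with a median of 2.50 (0.03 over all probe sets). Mzb1, a chaperone of IgM and IgA assembly, rose by 3.69 ± 0.19, Pdia4, a disulfide isomerase, by 2.84 ± 0.29, Dnajb9, a cofactor of the chaperone BiP, by 2.80 ± 0.34 and Hsp90b1, the chaperone GRP94, by 2.78 ± 0.42 (limma adjusted p = 1.07e-08, 6.14e-06, 2.96e-05 and 0.00025). In germinal center against naive cells, where Jchain also rose, 2 of the 12 rose and 4 fell, with a median of -0.45 (0.05 over all). The effect of the actin ratio on germinal center changes of these and the other listed genes was not tested. Erp44, which retains unassembled IgM, rose by 1.57 ± 0.24 and Mzb1 by 0.94 ± 0.21 (limma adjusted p = 0.000486 and 0.00755). Hsp90b1 fell by 2.97 ± 0.45 (-2.29 without germinal center array 1) and Pdia4 fell by 1.66 ± 0.31 (limma adjusted p = 0.000513 and 0.00233). Hspa5, the chaperone BiP, fell by 1.11 ± 0.33 (limma adjusted p = 0.0419), a call lost when any of 10 single arrays was left out (adjusted p = 0.0542 to 0.148). In memory against naive cells 0 of the 12 passed, with a median of -0.13 (-0.01 over all).

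Regulators of antibody genes moved both ways in plasma cells. Of 12 measured, 6 rose and 5 fell in plasma against naive cells, with a median of 0.04. Prdm1 rose by 5.58 ± 0.21 and Ell2, an elongation factor that favours the secreted form of the heavy chain transcript, by 3.51 ± 0.27 (limma adjusted p = 5.11e-10 and 3.79e-07). Bcl6 and Bach2, repressors of the plasma cell state, lay above background on 0 of 4 plasma arrays and were at least 103-fold and 71.6-fold lower there than in naive cells (limma adjusted p = 1.77e-10 and 6.38e-09). Spib fell by 7.10 ± 0.28, with 2 of 4 plasma arrays above background (limma adjusted p = 7.73e-10). In germinal center against naive cells 3 rose and 1 fell, with a median of 0.02. Mef2b, a transcription factor of germinal center B cells, rose there by 3.89 ± 0.40 and Irf4 fell by 3.46 ± 0.33 (limma adjusted p = 1.51e-05 and 8.84e-06). Ell2 rose by 1.20 ± 0.29 and Bcl6 by 0.85 ± 0.26 (limma adjusted p = 0.0124 and 0.043), calls lost without naive array 1 (adjusted p = 0.0562 and 0.104), and that of Bcl6 without any of 7 other arrays (0.0524 to 0.132). In memory against naive cells 1 rose and 1 fell, with a median of 0.03: Prdm1 rose by 0.89 ± 0.21 and Bcl6 fell by 1.85 ± 0.24 (limma adjusted p = 0.0337 and 0.000739). The call of Prdm1 was lost without naive array 1 or 3 or memory array 2 or 4 (limma adjusted p = 0.0824 to 0.128).

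The genes most like each member were ranked by Pearson's r of log2 intensity over the 14 arrays, among 12307 genes, as a description. For Jchain they were Fabp5 (0.97), Bdh1 (0.96) and Tent5c (0.95). For Igha 1421653_a_at they were Stac2, Spn and Tmem176b (0.97 each). For Ighm 1427351_s_at they were Dnajb9 (0.93), Morf4l2 (0.93) and Tceal9 (0.91), and for Ighg3 1427503_at Gm5547 (0.97), Prss16 (0.96) and Rhobtb1 (0.96). The 4 lists held no gene in common. For Ighg3 1447998_at, added after its values were seen, they were Zbtb20 (0.95), Bmpr1a (0.94) and Id2 (0.93).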

How the data were processed

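The deposited values are intensities on a linear scale, 1 for each probe set on each array, and RMA is named per the submitters' processing notes, with its version, software and chip definition not given in the sources used here. Its 45101 probe sets include 64 controls, and log2 was taken of the others with no pseudocount and no further scaling. Symbols came from the platform annotation, and all 19 members matched the reference table by Entrez number with 0 symbols changed. The members, lists and alternatives were chosen with earlier results of these data known. The model (limma 3.58.1, R 4.3.3) was fitted to all 45037 probe sets on the 14 arrays, with 1 mean per subset, 10 residual degrees of freedom and eBayes without a trend. Tests were two-sided, with Benjamini-Hochberg adjustment over all probe sets within each of 6 comparisons and calls at an adjusted p under 0.05. Lists used the brightest single-symbol probe set of each gene. Named were all members, up to 4 of the largest passing changes of each list and the 3 most alike genes, and the genes beyond these are those a statement turns on. A lower bound on a fold, written "at least", sets the brighter subset against the higher of background and signal in a subset above background on no array. The fit was tested on simulated data. Of 19 same-numbered pairs of arrays, 5 had deviations correlated over 0.1 (-0.31 to 0.27). Differently numbered pairs were not compared, so this does not decide whether replicate numbers pair the samples. Figures were drawn with matplotlib 3.10.9. Alternatives to the normalization, filter, unit, variance model, weights, floor, arrays and covariates were run, and leaving out each array was added for other genes named with a call.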

Additional observations from a re-analysis of the deposited data

Results flagged for a closer look

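Of 30 groups of 4 arrays tested for 1 array apart from the rest, 2 were found, and chance gives about 1 in 20. Probe set 1425385_a_at was 492.1 on memory array 2, while the other memory arrays lay between 103.1 and 127.7. Ighm 1427351_s_at was 14594 on plasma array 2, while the other plasma arrays lay between 20395.5 and 21776. The array with 1427351_s_at low also had the lowest Jchain and the lowest Igha 1421653_a_at of the plasma arrays, and its background, 16.1, was the highest of all 14.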

How the results depend on the processing

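Of 90 fold changes of measured members, 68 kept their direction and their side of the threshold in each of the 25 alternatives that gave a value for them, and so did 57 of the 69 called ones. None that passed was reversed. With 1 probe set per gene, where only 4 members entered, 4, 2 and 3 passed in plasma, germinal center and memory against naive cells, 4 in plasma against germinal center, 4 in plasma against memory and 3 in memory against germinal center cells. With the actin ratio as a covariate 4 passed in memory against germinal center cells (10 without). Without 1 array, in the same order, the counts ran from 12 to 14, 8 to 10, 10 to 13, 12 to 14, 13 to 13 and 10 to 11. Whether replicate numbers pair the samples was not decided. With a replicate block 12, 8, 10, 13, 13 and 10 passed, and Jchain in memory against naive cells was 2.54 (limma adjusted p = 0.0597). That call was also lost in a fit of the 2 subsets alone (adjusted p = 0.132). With the block, 1427869_at did not pass in plasma or memory against naive cells (limma adjusted p = 0.0609 and 0.056). It passed in germinal center against naive cells among measured probe sets, with an intensity trend, with the 2 subsets alone and centred on bright probe sets (adjusted p = 0.00521 to 0.0282). With measured probe sets alone or the trend, 1427329_a_at passed in germinal center and memory against naive cells (adjusted p = 0.0326 to 0.0484). Of 49 changes of other genes named with a call, 38 kept their call and moved by at most 1.5 times without each array, an alternative chosen after seeing the data. Fold changes that did not pass changed sign as follows, and the cause was not tested. For 1427351_s_at in germinal center against naive cells it was -0.019 with median centring and -0.075 to 0.29 without 1 array (below 0 without naive or germinal center array 3). For 1452535_at it was -0.021 to 0.17 in plasma against naive cells without 1 array (below 0 without naive array 1 or plasma array 4). In memory against naive cells it was 0.016 when centred on bright probe sets, an alternative chosen after seeing the data, and -0.18 to 0.0083 without 1 array (above 0 without naive array 3). For 1429381_x_at in germinal center against naive cells it was -0.41 to 0.0018 without 1 array (above 0 without germinal center array 1). For 1427869_at in plasma against germinal center cells it was -0.17 to 0.52 (below 0 without plasma array 2, 3 or 4 or germinal center array 3). For 1427329_a_at in memory against germinal center cells it was -0.57 to 0.31 (above 0 without germinal center array 1 or 3 or memory array 1). For 1427351_s_at the difference of memory from germinal center cells passed without memory array 4 (-0.83, limma adjusted p = 0.0276). Dim signals near background limit the naive levels of Jchain, Igha, Ighg3 and of the 7 dim Ighm probe sets other than 1427756_x_at (47.4 to 64.4).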

Other observations

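Partners of the membrane form of the antibody were mostly lower in plasma and germinal center cells. Of 5 measured genes, 4 fell in plasma and 4 in germinal center cells against naive cells, with medians of -1.66 and -1.10 (0.03 and 0.05 over all probe sets), and 1 rose in memory cells. Cd22, an inhibitory co-receptor, fell by 7.34 ± 0.22 and Cr2, the complement receptor CD21, fell by 5.91 ± 0.14 in plasma against naive cells (limma adjusted p = 6.98e-11 and 1.09e-11). Cd79b, a signalling chain of the receptor, fell by 1.66 ± 0.28 in plasma and fell by 1.47 ± 0.30 in germinal center cells (limma adjusted p = 0.000574 and 0.0044). Cd79a, its partner chain, fell by 1.20 ± 0.21 in plasma cells (limma adjusted p = 0.000898). Cd81 rose by 0.70 ± 0.14 in memory cells (limma adjusted p = 0.011, and 0.0589 without naive array 3).

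Receptors that bind antibody followed a like order. Of 7 measured genes, 6 fell in plasma, 5 in germinal center and 3 in memory cells against naive cells, with medians of -2.17, -1.59 and -0.56, and 1 rose in memory cells. Fcmr, the receptor for the constant region of IgM, averaged 37.4 in plasma, 669 in germinal center, 1739.9 in memory and 4925 in naive cells (geometric means), and fell by 7.04 ± 0.20 in plasma and fell by 2.88 ± 0.21 in germinal center cells against naive cells (limma adjusted p = 3.43e-11 and 6.32e-07). In memory cells Fcmr fell by 1.50 ± 0.20 (limma adjusted p = 0.000824). Fcer2a, the low-affinity IgE receptor CD23 on which naive cells were gated, fell by 6.96 ± 0.31 in plasma and fell by 2.74 ± 0.33 in germinal center cells (limma adjusted p = 2.28e-09 and 7.69e-05). Fcgr2b, the inhibitory receptor for IgG, fell by 1.49 ± 0.18 in plasma and rose by 0.76 ± 0.18 in memory cells (limma adjusted p = 3.45e-05 and 0.0357). Its rise in memory cells did not pass without naive array 2 or 3 or memory array 1, 2 or 3 (limma adjusted p = 0.0644 to 0.146).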
